A study of Homo sapiens with 30 samples.

Results

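The regions described here are ATAC-Seq peaks that were called in RWPE1-ERG cells and in neither of the other lines compared. A peak counted as a member if it lay on chromosomes 1 to 22 or X, had a −log10 q-value of at least 5 in the RWPE1-ERG list, and shared no base with any peak called with mAKT, whether alone (RWPE1-mAKT) or beside ERG (RWPE1-ERG/mAKT). Of the 56457 RWPE1-ERG peaks at that threshold, 11656 (20.6%) met the rule and are called ERG-only peaks below. The other RWPE1-ERG peaks were 33672 open in all 3 lines, 9477 shared with RWPE1-mAKT alone and 1652 shared with RWPE1-ERG/mAKT alone. For comparison, 5695 peaks were open only in RWPE1-mAKT and 1047 only in RWPE1-ERG/mAKT by the same rule.

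RWPE1 is an immortalized line of normal human prostate epithelium. The lines carried the pQCXIH vector with or without ERG (isoform 1), and the pBabe-puro vector with or without myristoylated AKT (mAKT), an AKT that sits at the membrane and is constantly active, each brought in by retrovirus and kept under drug selection. ATAC-Seq lists of 3 lines were used, each from 1 library. The study also assayed RWPE1-vector cells by ATAC-Seq, but no list under that label was analysed here, so ERG-only does not mean closed in RWPE1-vector cells. RNA-Seq had 3 libraries of each of 4 lines, RWPE1-vector included. ChIP-Seq lists of ERK2, ERG and H3K27me3 in related lines, among them the phospho-mimetic ERG S96E, were set against the same peaks. An ERG list of VCaP, a separate prostate cancer line, was used as well. According to the methods, VCaP cells for ChIP received DMSO or the PI3K inhibitor LY294002, and the list used is labelled without the inhibitor.

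ATAC-Seq marks DNA that a transposase can reach, and a peak is a stretch where more fragments end than in the surroundings. Such stretches are mostly promoters and enhancers, and enhancers in particular differ between cell states and carry short sequences that transcription factors read. ERG is a factor of the ETS family, whose members bind a GGAA core, often beside AP-1 sites, and it is expressed in many prostate tumors after fusion of its gene to TMPRSS2. Nuclear factor I (NFI), a family of 4 related proteins encoded by NFIA, NFIB, NFIC and NFIX, binds the half-site TTGGCA or its pair in inverted order.

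The sequences below are 300 bp windows around the centres of 6 ERG-only peaks, chosen because they hold an AP-1 or ETS sequence and are either among the 10 peaks with the highest fold enrichment or among the peaks that also overlap an ERK2 and an ERG peak. They are read on the plus strand of GRCh37. Capitals mark the NFI half-site (TTGGCA, or TGCCAA on the other strand), the AP-1 site (TGACTCA, or TGAGTCA on the other strand) and the ETS sequences CAGGAAG and GGAAGTGA on either strand.
chr14:83322423-83322722, between genes: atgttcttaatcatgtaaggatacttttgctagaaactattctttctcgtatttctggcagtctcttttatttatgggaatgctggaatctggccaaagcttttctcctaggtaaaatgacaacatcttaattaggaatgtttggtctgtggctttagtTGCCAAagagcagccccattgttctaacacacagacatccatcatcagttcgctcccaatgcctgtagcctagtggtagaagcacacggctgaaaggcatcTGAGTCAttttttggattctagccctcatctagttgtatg
chr3:6969807-6970106, GRM7 intron: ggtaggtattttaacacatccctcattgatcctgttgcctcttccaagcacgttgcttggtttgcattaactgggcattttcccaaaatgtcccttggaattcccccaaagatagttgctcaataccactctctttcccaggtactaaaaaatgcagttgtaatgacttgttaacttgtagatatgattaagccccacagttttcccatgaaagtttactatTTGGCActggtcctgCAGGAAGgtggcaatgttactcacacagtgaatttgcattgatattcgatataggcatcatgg
chr3:106176171-106176470, lncRNA intron: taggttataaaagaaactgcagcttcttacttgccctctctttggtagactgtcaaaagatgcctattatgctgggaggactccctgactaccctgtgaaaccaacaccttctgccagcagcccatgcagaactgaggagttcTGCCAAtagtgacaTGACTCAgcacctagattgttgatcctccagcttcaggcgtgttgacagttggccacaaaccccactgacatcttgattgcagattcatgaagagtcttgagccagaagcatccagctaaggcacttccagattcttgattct
chr1:183722636-183722935, RGL1 intron: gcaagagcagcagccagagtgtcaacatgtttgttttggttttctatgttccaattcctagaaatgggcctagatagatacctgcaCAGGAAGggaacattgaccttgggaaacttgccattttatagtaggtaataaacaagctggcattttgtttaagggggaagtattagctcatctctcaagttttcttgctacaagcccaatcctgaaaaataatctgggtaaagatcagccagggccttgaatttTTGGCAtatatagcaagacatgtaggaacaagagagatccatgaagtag
chr14:52001306-52001605, FRMD6 intron: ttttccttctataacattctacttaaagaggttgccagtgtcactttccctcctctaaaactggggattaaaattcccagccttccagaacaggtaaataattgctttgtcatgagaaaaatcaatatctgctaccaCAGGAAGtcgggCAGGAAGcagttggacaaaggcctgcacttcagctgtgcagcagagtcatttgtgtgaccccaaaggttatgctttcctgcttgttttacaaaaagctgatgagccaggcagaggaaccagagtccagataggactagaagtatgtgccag
chr1:43941602-43941901, near HYI: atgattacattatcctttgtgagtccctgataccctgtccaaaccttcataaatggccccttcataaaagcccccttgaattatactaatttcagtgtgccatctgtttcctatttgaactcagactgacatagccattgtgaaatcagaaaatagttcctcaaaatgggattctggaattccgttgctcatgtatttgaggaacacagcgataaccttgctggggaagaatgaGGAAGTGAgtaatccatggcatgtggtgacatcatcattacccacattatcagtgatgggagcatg
The first 4 windows each hold 1 NFI half-site. In the window of chromosome 3 at 106176171 it starts at base 144, and an AP-1 site starts at base 158. In the GRM7 window the half-site starts at base 223 and CAGGAAG at base 238. The FRMD6 window holds CAGGAAG at bases 138 and 150 and no NFI half-site.

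Because the members were chosen by their ATAC values, these are given as a description. The ERG-only peaks had a median fold enrichment over the local background of 5.73 (middle 50% of peaks 4.74 to 7.3, range 1.82 to 18.9), a median −log10 q-value of 11.6 and a median width of 339 bp. Peaks open in all 3 lines were stronger and wider, with medians of 7.66, 36.7 and 626 bp. Of the ERG-only peaks, 4789 had a −log10 q-value under 10, called the weak band below, where the main shares are compared again. The 3 members nearest to the threshold had −log10 q-values of 5.0004, 5.0005 and 5.0005, and the nearest 3 peaks left out had 4.9998, 4.9986 and 4.9954. Only 246 ERG-only peaks (2.11%) had a peak of another line within 1 kb, whereas 45.9% had one within 10 kb. A neighboring ERG-only peak lay within 10 kb of 15.7% of them.

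Each line had 1 ATAC library, so no difference between lines could be tested against replicate error, and the intervals below are 95% Wilson intervals that cover counting error only. The lowest background pileup in each list, which scales with sequenced fragments and their length, was 2.39 in RWPE1-ERG cells, 2.76 with mAKT and 2.22 with both. The RWPE1-ERG list was thus not the one with the highest background, but it had the highest median fold enrichment (6.43, against 5.28 and 5.51) and the most peaks. How far this higher enrichment accounts for peaks called in RWPE1-ERG alone was not tested. When the same number of peaks was taken from each list, 7432 ERG-only peaks were left.

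The ERG-only peaks lay away from promoters. The centre was within 1 kb of the start of a protein-coding or lncRNA gene for 545 of them (4.68%, interval 4.31 to 5.07%), against 22.2% of all RWPE1-ERG peaks and 32.9% of those open in all 3 lines. By their centres, 56.6% were in introns, 35.6% between genes and 7.77% in exons. In the weak band the share at gene starts was 6.1%, against 20% for peaks open in all 3 lines. Their windows were also poorer in G and C, with a mean of 48.4% and 4.57 CpG dinucleotides per 300 bp, against 56% and 13.9. The RWPE1-mAKT-only peaks resembled them in this, with 4.11% at gene starts and 47.5% G and C.

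The 10 ERG-only peaks with the highest fold enrichment spanned 14.7 to 18.9. The strongest, chr9:9442090-9442292, had a fold enrichment of 18.9 and lay in an intron of PTPRD, a receptor tyrosine phosphatase gene, over RN7SL5P, an annotated copy of the 7SL RNA. Reads from such multicopy sequences can be placed at more than 1 locus, so this peak is uncertain. The second, chr14:83322365-83322781, had a fold enrichment of 16.3 and lay between genes. The third, chr3:6969800-6970114, had one of 16.1 and lay in an intron of GRM7, a glutamate receptor gene. Other peaks of the 10 lay in introns of SAMD5, RGL1, SLC25A21 and TMEM132D. Of the 10, 5 held an NFI half-site, 2 an AP-1 site and 2 CAGGAAG in the 300 bp window, 9 were more than 10 kb from any gene start, and 0 overlapped an ERK2 or ERG peak.

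Of the 6-letter sequences present in at least 5% of ERG-only peaks, the NFI half-site was the most enriched over peaks open in all 3 lines. TTGGCA was present on either strand in 4581 of 11656 windows (39.3%, interval 38.4 to 40.2%), against 23.9% of all RWPE1-ERG peaks. It was present in 27.2% of the peaks shared with RWPE1-mAKT, 25.8% of those shared with RWPE1-ERG/mAKT and 17.6% of those open in all 3 lines (interval 17.2 to 18%). The peaks private to the other lines were near that last level, with 17.9% in RWPE1-mAKT-only peaks and 16% in RWPE1-ERG/mAKT-only peaks. Windows of the same length 1 kb to either side of the ERG-only peaks held it in 15.1%. At least 2 copies were present in 9.61% of ERG-only peaks and 2.4% of peaks open in all 3 lines.

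**Figure D1:**
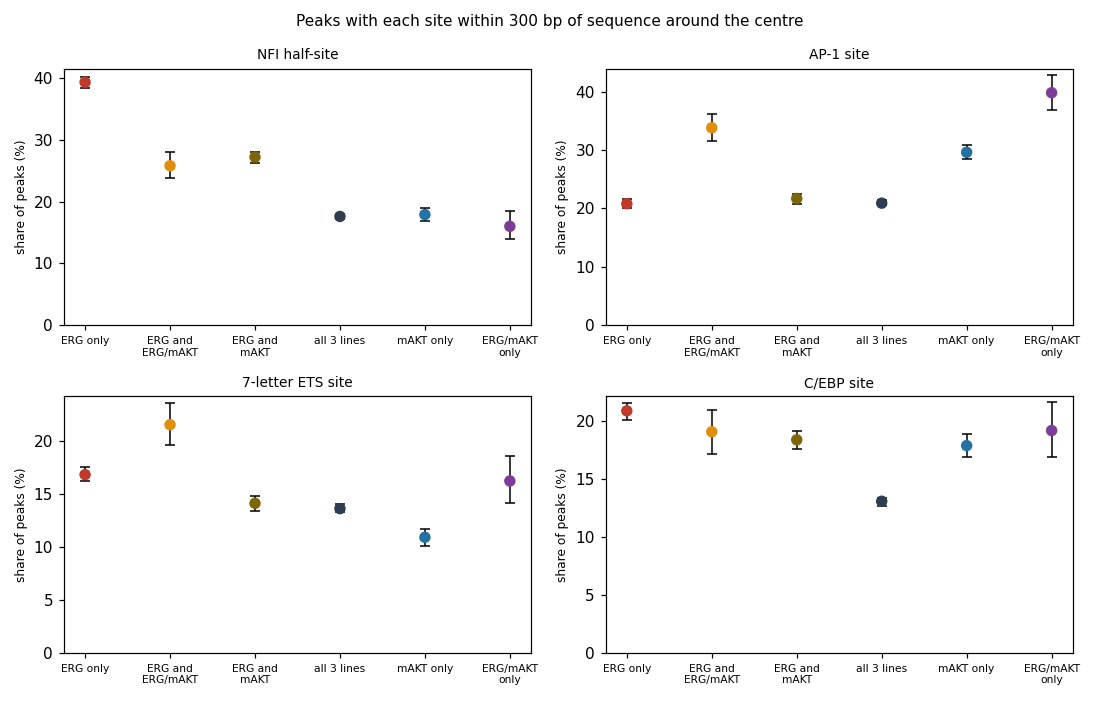
Share of peaks (%, vertical axes) that hold an NFI half-site, an AP-1 site, the 7-letter ETS site or a C/EBP site within the 300 bp window, for peaks grouped by the lines in which they were called (horizontal axes); points are shares and bars 95% Wilson intervals. The NFI half-site stood at 39.3% in ERG-only peaks and at 16 to 27.2% in the other groups, whereas AP-1 was highest in the RWPE1-ERG/mAKT-only peaks (39.8%).

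This sequence came from counting, not from a list. Of the 2080 sequences of 6 letters, counted with their reverse complements, 1566 were in at least 5% of ERG-only windows. TTGGCA ranked first by the ratio of its share to that in peaks open in all 3 lines, at 2.24, and first again within the weak band (34.3% against 13.9%) and against RWPE1-mAKT-only peaks. Against RWPE1-ERG/mAKT-only peaks it ranked 10, at a ratio of 2.45. The second and the third by the ratio to peaks open in all 3 lines, GCCAAA and TGGCAA, overlap it by 5 letters, at 1.92 and 1.83. Of the first 10 by this ratio, 4 hold TGGC or its reverse complement. Others, such as AATTGG (1.8) and AACAAT (1.78), do not and are rich in A and T. The lower G and C content of ERG-only windows was not corrected for in this ranking. In the ERG-only windows, TTGGCA was preceded by C in 35.7% and by T in 30.6% of 5864 copies, and followed by G in 36.9%. The full palindromic NFI site has TTGGC and its reverse complement 5 bases apart. It was found in 2 ERG-only windows (0.0172%), against 0.0602% of all RWPE1-ERG peaks, so nearly all matches lay outside an exact full site. Only exact letters at that spacing were counted, so full sites with other letters or spacing would be missed. A match is to letters in the reference and does not show which protein was bound.

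The half-site was concentrated at the peak centre. In the 100 bp around it, ERG-only peaks had 100 copies per 1000 peaks per 50 bp, and 27.8 at distances over 500 bp, a 3.6-fold difference. In peaks open in all 3 lines the same values were 35.3 and 24.7, a 1.43-fold difference. The RWPE1-mAKT-only peaks had a 1.46-fold and the RWPE1-ERG/mAKT-only peaks a 1.08-fold difference. AP-1 was also centred in ERG-only peaks, with 48.4 copies at the centre and 7.43 farther out, close to the 49 and 7.8 of peaks open in all 3 lines.

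**Figure D2:**
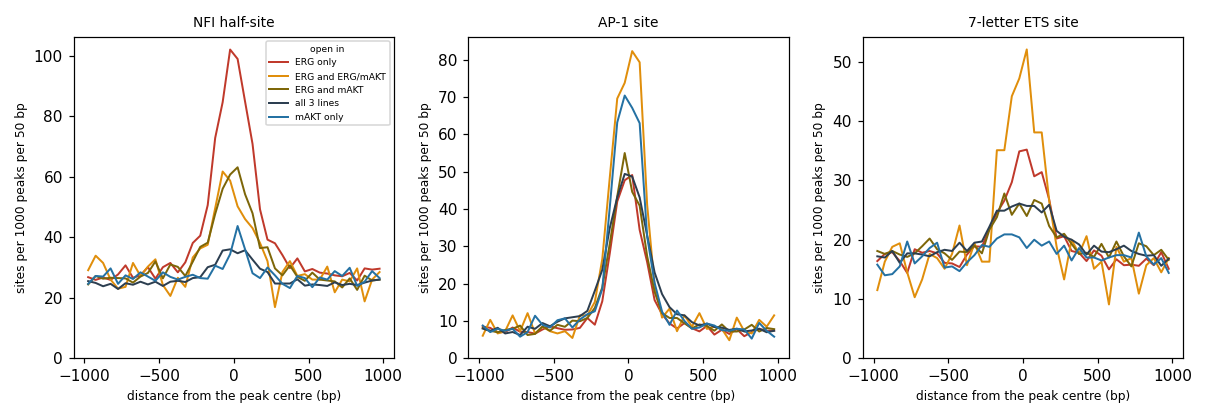
Copies per 1000 peaks in each 50 bp step (vertical axes) against distance from the peak centre (bp, horizontal axes) for the NFI half-site, AP-1 site and 7-letter ETS site; each line is a group of peaks by the lines that share it. The NFI half-site rose to 100 at the centre of ERG-only peaks against 35.3 in peaks open in all 3 lines, while their AP-1 curves lay together at 48.4 and 49.

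Stronger ERG-only peaks held the half-site more often. In 5 equal groups by fold enrichment it was present in 32.7% of the weakest, then 34.4%, 38.8% and 41%, and in 49.5% of the strongest. Over the same groups AP-1 went from 17.7% to 22.9% and CAGGAAG from 16.6% to 16.8%. The GC box GGGCGG, a promoter sequence, went the other way, from 13.9% to 4.46%, as did the share at gene starts, from 7.2% to 2.75%. The rise of the half-site was not particular to ERG-only peaks. From the weak band to −log10 q-values of at least 10 it went from 34.3% to 42.8% in ERG-only peaks. It went from 20.8% to 30.2% in peaks shared with RWPE1-mAKT, 21.8% to 28% in those shared with RWPE1-ERG/mAKT and 13.9% to 18% in those open in all 3 lines. RWPE1-mAKT-only peaks had 18% and 17.8%.

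**Figure D3:**
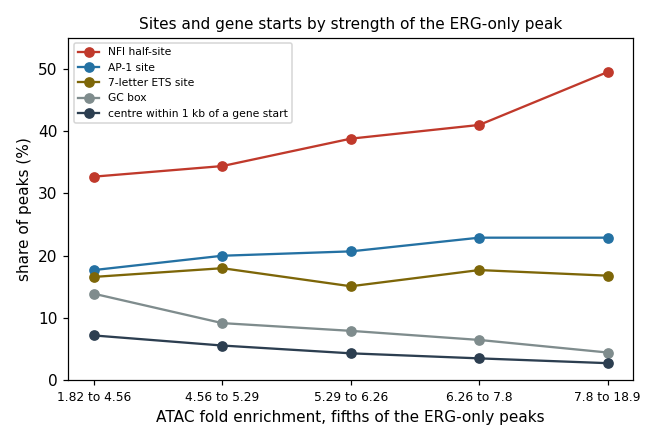
Share of ERG-only peaks (%, vertical axis) with each sequence, or with a gene start within 1 kb, in 5 equal groups by ATAC fold enrichment (horizontal axis, range of fold in each group). The NFI half-site went from 32.7% to 49.5%, and the share at gene starts from 7.2% to 2.75%.

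The AP-1 site, bound by dimers of FOS and JUN proteins, was about as frequent in ERG-only peaks as in constitutive ones. It was present in 20.8% of them (interval 20.1 to 21.6%), 21.4% of all RWPE1-ERG peaks and 20.9% of those open in all 3 lines (20.5 to 21.4%). It was more frequent in peaks shared with RWPE1-ERG/mAKT (33.8%), RWPE1-mAKT-only peaks (29.6%) and RWPE1-ERG/mAKT-only peaks (39.8%). In the weak band the shares were 20.2% of ERG-only peaks and 22% of those open in all 3 lines. ERG-only windows with an NFI half-site held AP-1 in 21.3% and those without in 20.5%.

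Of the ETS sequences, the core GGAAG was in 68.9% of ERG-only windows (interval 68.1 to 69.8%) and 69.6% of all RWPE1-ERG peaks. It was in 70.2% of peaks open in all 3 lines, but in the weak band the order turned, to 68.3% of ERG-only peaks and 64.7% of those. The longer CAGGAAG was in 16.8% (interval 16.2 to 17.5%), against 14.6% of all RWPE1-ERG peaks, 13.6% of those open in all 3 lines (13.3 to 14%) and 10.9% of RWPE1-mAKT-only peaks. In the weak band it was in 16.5%, against 12.5% of peaks open in all 3 lines. It was most frequent, at 21.5%, in peaks shared with RWPE1-ERG/mAKT, the other line with ERG. In ERG-only peaks it stood at 35 copies per 1000 peaks per 50 bp at the centre and 16.6 farther out. CCGGAAGT, the high-affinity ETS site typical of promoters, was in 30 ERG-only windows (0.257%), against 1.65% of all RWPE1-ERG peaks and 2.49% of those open in all 3 lines, and the weak band narrowed this to 0.23% against 0.706%. The composite GGAAGTGA, in which an ETS core runs into part of an AP-1 site, was in 3.08%, against a background of 3.07%, and the GGAAGGAA repeat in 4.44%, against 3.76%.

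Among the other sequences counted, the C/EBP sequence TTGCNNAA was in 20.9% of ERG-only windows, against 15.7% of all RWPE1-ERG peaks and 13.1% of those open in all 3 lines. Some of these matches contain TGCCAA, and without them it was in 17.7% of ERG-only peaks, 11.8% of those open in all 3 lines and 16.6% of RWPE1-mAKT-only peaks. In the weak band all TTGCNNAA matches together were in 19.2% of ERG-only peaks and 13.1% of those open in all 3 lines. The GC box was in 8.39%, against 24.8% of all RWPE1-ERG peaks and 34.2% of those open in all 3 lines, and in the weak band in 10.1%, against 24.6% of the latter. RUNX (TGTGGTTT) was in 3.71%, against 2.82%, FOX (TGTTTAC) in 6.31%, against 5.71%, and GRHL (AACNNGTT) in 6.67%, against 5.5%. TEAD (ACATTCC) was in 6.87%, against 6.35%, the p53 family sequence GNCATGNC in 9.32%, against 8.49%, and the CTCF core CCACNAGG in 5.49%, against 5.73%. Counts of sequences with few C and G letters rise in windows poor in these bases, and this was not corrected.

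The NFI genes were expressed in all 4 lines, by FPKM, a fragment count scaled by gene length and library size, pooled over the 3 libraries of a line. NFIX was at 28.2 FPKM in RWPE1-vector, 27.1 in RWPE1-ERG, 22.8 in RWPE1-mAKT and 24.6 in RWPE1-ERG/mAKT. NFIC was at 13.3, 11.9, 12.1 and 12.5 FPKM in the same order. NFIA was at 4.41, 4.23, 4.28 and 4.04 FPKM, and 8 ERG-only peaks had it as their nearest gene, each equally near to another gene. These 3 differed little between lines. NFIB was highest in RWPE1-ERG, at 8.27 FPKM, against 5.85, 4.84 and 5.47. Of the AP-1 genes, FOSL1 was at 119 FPKM in RWPE1-vector, 200 in RWPE1-ERG, 100 in RWPE1-mAKT and 78.1 in RWPE1-ERG/mAKT. Others were lower in RWPE1-ERG than in RWPE1-vector, JUND at 47.4 against 78.2 FPKM, FOSL2 at 18 against 26.8, JUNB at 97.3 against 111 and JUN at 39.2 against 44.8.

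Few ERG-only peaks overlapped a ChIP-Seq peak. An ERG peak of RWPE1-ERG/mAKT cells overlapped 116 of them (0.995%, interval 0.83 to 1.19%), against 3.1% of all RWPE1-ERG peaks, 4.31% of those open in all 3 lines and 6.72% of those shared with RWPE1-ERG/mAKT. Weak band shares were 0.898%, against 2.02% of peaks open in all 3 lines. By the rule no ERG-only peak overlaps an ATAC peak of RWPE1-ERG/mAKT cells, so this share is not independent of the rule. The other groups not called in those cells were lower, at 0.791% of peaks shared with RWPE1-mAKT and 0.509% of RWPE1-mAKT-only peaks. RWPE1-ERG/mAKT-only peaks were at 3.34%. An ERG peak of VCaP, a prostate cancer line with the TMPRSS2-ERG fusion, overlapped 113 (0.969%), against 2.07% of all RWPE1-ERG peaks. The other groups ran from 0.193% of RWPE1-mAKT-only peaks and 0.549% of those shared with RWPE1-mAKT to 1.43% of RWPE1-ERG/mAKT-only peaks, 2.48% of those shared with RWPE1-ERG/mAKT and 2.85% of those open in all 3 lines. The weak band had 1.04%, against 3.31% of the last group. ERG binding in RWPE1-ERG cells themselves was not analysed here. An ERK2 peak of RWPE1-ERG cells overlapped 32 (0.275%, interval 0.195 to 0.387%), against 3.69%, with 0.271% against 2.82% of peaks open in all 3 lines in the weak band. An ERK2 peak of RWPE1-vector cells overlapped 174 (1.49%), against 5.87%, with 1.25% against 4.4% in the weak band. For the ERK2 lists of RWPE1-ERG and RWPE1-vector, peaks shared with RWPE1-mAKT had 0.591% and 3.1%, and RWPE1-mAKT-only peaks 0.544% and 2.48%. Peaks shared with RWPE1-ERG/mAKT had 1.51% and 2.78%, and RWPE1-ERG/mAKT-only peaks 2.48% and 1.43%. The ERK2 lists differed in size, with 5721 and 41276 peaks. ERG-only peaks were also narrower than peaks open in all 3 lines (median 339 against 626 bp), and overlap shares were not corrected for width.

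Both an ERK2 peak and an ERG peak overlapped 4 ERG-only peaks (0.0343%), against 0.531% of all RWPE1-ERG peaks. The one with the highest fold enrichment (4.55), chr14:52001219-52001694, lay in an intron of FRMD6, a gene of the Hippo pathway, and holds the CAGGAAG pair printed above. The others were chr1:43941626-43941878, between genes, with a fold enrichment of 4.22, chr5:957145-957639, between genes, at 2.38, and chr5:131833533-131834108, at 2.25, in an intron annotated to IRF1, an interferon-induced factor. All 4 were below the median fold enrichment of ERG-only peaks.

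H3K27me3, the mark set by Polycomb repressive complex 2, covers silent genes. A region with the mark in RWPE1-vector cells overlapped 1579 ERG-only peaks (13.5%, interval 12.9 to 14.2%), against 8.44% of all RWPE1-ERG peaks and 5.91% of those open in all 3 lines. For the regions of RWPE1-ERG cells the shares were 4.8%, 2.73% and 1.8%, and for those of RWPE1-ERG S96E cells 10.7%, 7.31% and 5.51%. For the 3 lists in the same order, RWPE1-mAKT-only peaks had 11.6%, 3.46% and 8.32%, and those shared with RWPE1-mAKT 11%, 3.6% and 9.81%, nearer to the ERG-only level than peaks open in all 3 lines. In the weak band the difference from peaks open in all 3 lines narrowed for RWPE1-vector (13% against 10.5%) and turned for RWPE1-ERG (5.28% against 5.87%) and S96E (12.1% against 13.4%), so that the direction depended on the strength of the peaks compared. Of the ERG-only peaks, 1301 (11.2%) overlapped a region in RWPE1-vector and none in RWPE1-ERG cells, against 7% of all RWPE1-ERG peaks, 282 (2.42%) the reverse, against 1.29%, and 278 (2.39%) both, against 1.44%. Among peaks with a region in RWPE1-vector, the share with none in RWPE1-ERG was 82.4% for ERG-only peaks and 82.9% for all RWPE1-ERG peaks. The lists held 492265 regions for RWPE1-vector, 228233 for RWPE1-ERG and 252784 for S96E, and with an equal number of regions from each the shares were 6.45%, 4.8% and 10.1%.

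**Figure D4:**
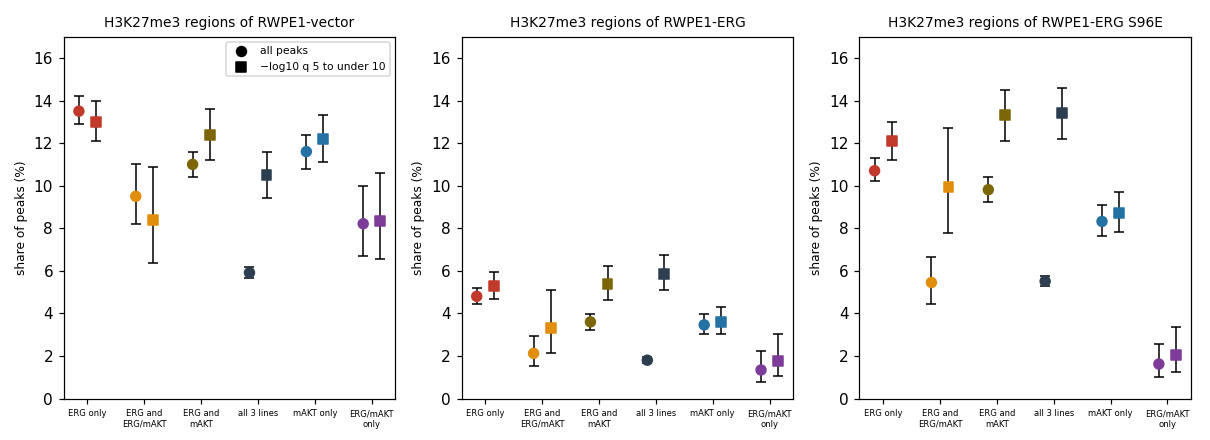
Share of peaks (%, vertical axes) that overlap an H3K27me3 region of RWPE1-vector, RWPE1-ERG or RWPE1-ERG S96E cells, by the lines in which the peak was called (horizontal axes); circles are all peaks, squares those with a −log10 q-value from 5 to under 10, and bars 95% Wilson intervals. ERG-only peaks stood at 13.5%, 4.8% and 10.7% over all peaks, and in the weak band peaks open in all 3 lines reached 10.5%, 5.87% and 13.4%.

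Each ERG-only peak was assigned the gene with the nearest span in the RNA-Seq table. The span covered 5739 peaks (49.2%) and lay within 50 kb of 9194 (78.9%). For 28.4% another gene was equally near, in which case the gene with the shorter span was taken. Where the spans were also equal, the first gene by name was taken. In all 6441 genes were nearest to a member, and 1190 were nearest to 3 or more. Basal and simple keratins were expressed in all 4 lines, at levels that differed. ERG itself, the label check, was at 0.264 FPKM in RWPE1-vector, 358 in RWPE1-ERG, 0.435 in RWPE1-mAKT and 328 in RWPE1-ERG/mAKT. The basal keratin KRT5 was at 3130, 1170, 3640 and 3520 FPKM, the basal KRT14 at 2940, 700, 2530 and 1190 FPKM, the basal factor TP63 at 36.3, 21.3, 39.2 and 38 FPKM, and the simple keratin KRT8 at 622, 1770, 671 and 921 FPKM. In RWPE1-ERG KRT5, KRT14 and TP63 were thus lowest and KRT8 highest of the 4 lines. The basal integrin gene ITGB4 was at 379, 283, 339 and 186 FPKM, lowest in RWPE1-ERG/mAKT. The endothelial PECAM1, CDH5 and VWF were each at or below 0.21 FPKM in every line. Of the fibroblast genes COL3A1 and PDGFRA were listed at 0 and COL1A1 was between 1.78 and 2.18 FPKM, and the immune PTPRC and CD3E were at or below 0.00929 FPKM, while CD14 was at 0.764, 0.505, 0.628 and 1.09 FPKM.

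The nearest genes were not more often higher in RWPE1-ERG cells than genes at large. Of the 2934 with at least 1 FPKM in RWPE1-vector or RWPE1-ERG, 83 (2.83%) were at least 2-fold higher in RWPE1-ERG on the log2(FPKM + 1) scale, against a background of 3.62% of all 12238 such genes. At least 2-fold lower were 30 (1.02%), against 0.989%, and the median log2 difference was −0.04, against −0.01 for all genes. For the genes nearest to other groups, the shares higher were 2.28% for peaks open in all 3 lines and 2.48% for those shared with RWPE1-mAKT. They were 2.6% for RWPE1-mAKT-only peaks, 3.2% for those shared with RWPE1-ERG/mAKT and 4.26% for RWPE1-ERG/mAKT-only peaks. With pooled values there is no replicate error, so these are counts past a fold and not tested calls. Among the 132 expressed genes with 5 or more members, 6 (4.55%) were higher and 0 lower. Of the 500 with 3 or more, 18 (3.6%) were higher and 5 (1%) lower, near the background of 3.62% and 0.989%. RWPE1-ERG over RWPE1-mAKT gave 87 higher (2.96%, background 3.65%) and 40 lower (1.36%, background 1.49%). Adding mAKT to ERG gave 60 higher (2.03%, background 2.06%) and 77 lower (2.61%, background 2.51%). Genes at least 2-fold higher in RWPE1-ERG than in each other line, RWPE1-vector included, were 33 (1.12%), against 1.43%. Of the nearest genes, 54.4% were below 1 FPKM in both RWPE1-vector and RWPE1-ERG, against 52.6% of all genes.

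The 10 largest differences upward, among nearest genes within 50 kb with at least 5 FPKM in the higher line and over 0.5 in the lower, were between 2 and 2.84 on the log2(FPKM + 1) scale. CST6, a secreted cysteine protease inhibitor, was at 9.51 FPKM in RWPE1-vector, 74.3 in RWPE1-ERG, 7.27 in RWPE1-mAKT and 18.5 in RWPE1-ERG/mAKT. TGM2, a protein crosslinking enzyme, was at 8.73, 53.5, 5.36 and 4.18 FPKM in the same order. Its only member peak, chr20:36793618-36793912, reached the edge of the gene's span and had a fold enrichment of 3.62. TGM2 was thus high in RWPE1-ERG alone.

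PLCB4, a phospholipase C that acts below G protein-coupled receptors, was at 4.15 FPKM in RWPE1-vector, 22.8 in RWPE1-ERG, 2.3 in RWPE1-mAKT and 1.93 in RWPE1-ERG/mAKT, and was nearest to 4 ERG-only peaks. NNMT, which methylates nicotinamide, was at 12.7, 67.1, 7.31 and 33.3 FPKM and was also nearest to 4, all of which held an NFI half-site. MGLL, a monoacylglycerol lipase, was at 7.67, 33.7, 4.71 and 11.5 FPKM, and MARCHF4, a membrane ubiquitin ligase, at 1.29, 12.4, 0.561 and 3.3 FPKM. For PLCB4, MGLL and MARCHF4 the level in RWPE1-ERG/mAKT was nearer to RWPE1-vector than to RWPE1-ERG, whereas 2 others stayed high. SAA1, an acute phase protein, was at 31.5, 165, 33.8 and 154 FPKM, and LAMP3, a lysosomal membrane protein, at 0.618, 5.8, 1.05 and 4.5 FPKM. The remaining pair were small RNA genes, SNORA47 and MIR3687-2, whose levels in polyA RNA are uncertain. Apart from NNMT, an NFI half-site was present in 1 of the 4 peaks of PLCB4 and in the only peaks of LAMP3 and MIR3687-2. No ERG-only peak assigned to CST6, TGM2, MGLL, MARCHF4, SAA1 or SNORA47 held one.

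The 10 largest differences downward were between −1.45 and −1.1. COL17A1, a hemidesmosome collagen of basal cells, was at 210 FPKM in RWPE1-vector, 79.4 in RWPE1-ERG, 170 in RWPE1-mAKT and 76.8 in RWPE1-ERG/mAKT, low in both lines with ERG. VCAN, a matrix proteoglycan, was at 7.17, 2.01, 0.915 and 0.273 FPKM. GJA1, the gap junction protein connexin 43, was at 19.4, 8.31, 24.2 and 16.8 FPKM, and AQP3, a water and glycerol channel, at 11.8, 4.97, 28.5 and 62.3 FPKM, both lowest in RWPE1-ERG. The other 6 were PID1, LTBP1, NPTX2, LINC01133, IL13RA2 and SLC7A8, each between 5.12 and 8.89 FPKM in RWPE1-vector. Peaks open only in RWPE1-ERG thus lay beside genes that were lower in that line than in RWPE1-vector as well as genes that were higher. RWPE1-vector is not among the lines that define these peaks. Against the lines with mAKT, which are, GJA1, AQP3, SLC7A8 and LINC01133 were lower in RWPE1-ERG than in both. VCAN and PID1 were higher than in both, and the others lay between. COL17A1 had 2 ERG-only peaks in its span, both with an NFI half-site and both tied with another gene. The peaks assigned to NPTX2, LINC01133 and GJA1 held no half-site.

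**Figure D5:**
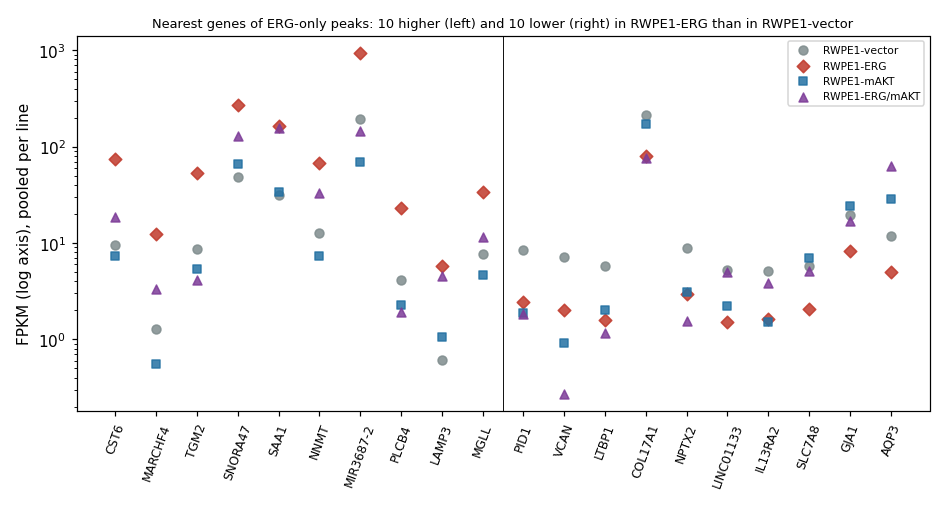
FPKM pooled per line (vertical axis, log scale) of the 10 nearest genes with the largest upward and the 10 with the largest downward difference between RWPE1-ERG and RWPE1-vector (horizontal axis); each symbol is 1 line. CST6 stood at 74.3 FPKM in RWPE1-ERG and 9.51 in RWPE1-vector, and COL17A1 at 79.4 and 210.

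Genes with a known part in this cell type were described by lists, counting those within 50 kb of a member with at least 1 FPKM in RWPE1-vector or RWPE1-ERG. The lists are small, and the background is 3.62% higher and 0.989% lower. Of 8 basal epithelial genes, 0 were at least 2-fold higher and 1, COL17A1, lower, against 1 and 3 of the 16 expressed genes of the list, with a median log2 difference of −0.41, against −0.56 for those 16 and −0.01 for all genes. ITGA6, the laminin receptor subunit of hemidesmosomes, was at 125, 70.9, 116 and 67.2 FPKM, in the same order of lines. LAMB3, a chain of laminin-332 whose only peak was tied with another gene, went the other way, at 115, 222, 94.2 and 99.1 FPKM. Of 7 genes of epithelial to mesenchymal transition and migration, 1 was higher, AXL, a receptor tyrosine kinase, at 34.5, 82.4, 29.3 and 17.8 FPKM, against 5 higher of the 19 expressed genes of the list. The median log2 difference was 0.45, as it was for those 19. Within 2-fold, TGFBI, MMP14 and PLAT were higher in RWPE1-ERG than in RWPE1-vector, TNC and SNAI2 lower, and ITGAV about level. Of 11 genes of axon guidance and cell adhesion, 2 were higher and 2 lower, against 4 and 2 of the 19 expressed genes of the list. EPHB2, an ephrin receptor with 6 ERG-only peaks, each equally near to another gene, was at 2.01, 5.78, 2.36 and 3.68 FPKM, and PCDH7, a protocadherin with 4, at 0.686, 4.05, 1.17 and 3.3 FPKM. Those lower were NRP2, a semaphorin receptor, at 6.01, 2.49, 3.7 and 3.06 FPKM, and UNC5B, a netrin receptor whose only peak was tied with another gene, at 4.8, 1.84, 6.99 and 8.02 FPKM.

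Other lists had a count of 0, which at the background share does not set lists of this size apart. Of 7 ERK feedback genes near a member 0 passed 2-fold in either direction (median −0.20, against −0.17 for the 19 expressed genes of the list), as was so for 4 AP-1 genes and 6 growth factors and cytokines. SPRED2, an inhibitor of RAS and RAF signaling with 3 ERG-only peaks, was at 15.1, 10.7, 15.3 and 8.75 FPKM. Of 8 ETS genes only ERG, the transgene, passed. ETS1, nearest to 6 ERG-only peaks, was at 21, 25, 20.7 and 13.5 FPKM, with NFI half-sites in 5 of the 6, though each of these peaks was equally near to another gene. The peaks assigned to ELF4, ETS2 and ETV4 held no NFI half-site. KRT18 was the only luminal gene counted, while 4 of the 9 expressed genes of that list were higher. It was at 817, 1840, 987 and 958 FPKM, with 3 ERG-only peaks in a span that it shares with KRT8. These peaks were assigned to KRT18 and not to KRT8 only because KRT18 comes first by name. Of 4 genes of the cornified envelope and squamous cells 1 was higher, KRT13, at 4.1, 9.76, 111 and 148 FPKM, against 1 higher and 3 lower of the 13 expressed genes of the list. S100A9, a calcium-binding protein of that list, was at 33, 38.4, 51.6 and 691 FPKM, highest in RWPE1-ERG/mAKT, where its nearby peak was not called. The endothelial genes counted were EGFL7 and ERG itself, and that list's median of 4.39 rests on the transgene. Of the lists of other cell types, 1 fibroblast gene (ACTA2) and 0 immune genes were counted, and none passed 2-fold.

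By the spans searched, the genes nearest to the most ERG-only peaks were mostly silent. HLA-DRB5 was nearest to 21, but the closest lay 272166 bp away, and its highest level was 0.00583 FPKM. Another of these peaks, with a fold enrichment of 13.2, lay 1414538 bp away. Whether genes without a span in the search lie nearer was not tested, so the level of HLA-DRB5 does not describe the genes beside these peaks. LINC01507 was nearest to 16 and listed at 0 in every line, and SYN3, with every peak tied, and BRINP1, both nearest to 14, were at or below 0.0264 FPKM in every line. FLRT3, a cell adhesion gene nearest to 15, was at 5.83, 2.61, 4.02 and 2.15 FPKM, and all 15 were tied with another gene of that span. Of the genes higher in RWPE1-ERG than in each other line, CCBE1 and XYLT1 were nearest to the most members, 6 each. They were named after their values were seen. CCBE1, a secreted matrix protein, was at 4.99, 15.3, 3.26 and 2.61 FPKM, and XYLT1, a xylosyltransferase that starts proteoglycan chains, at 1.15, 3.45, 0.42 and 0.595 FPKM.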

How the data were processed

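All values come from the authors' deposited tables. According to the methods, ATAC-Seq reads were mapped to hg19 by Bowtie2, stripped of duplicates, and passed to MACS2 in its broad setting. For each peak the authors deposited a position, a pileup signal, its fold enrichment, and significance as −log10 of the p-value and of the q-value. The deposited FPKM table, made by the authors with TopHat2 and Cuffdiff, has 1 value per line for 3 pooled libraries. Its columns of fold changes, p-values and q-values hold the authors' own comparisons and were not used.

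Overlap means at least 1 shared base. Sequences were counted on both strands of GRCh37 in 300 bp around the peak centre. Genes and starts are from GENCODE release 44 mapped to GRCh37. Nearest genes used the spans in the table, without 2 symbols that had more than 1 set of rows. Fold differences used a pseudocount of 1 FPKM, and a gene needed 1 FPKM in either line compared. Wilson intervals are at 95%.

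Named peaks are the 10 strongest by fold enrichment, the 3 nearest to the threshold and those that overlap an ERK2 and an ERG peak. Named genes are the 10 largest differences each way within 50 kb of a member, the 5 nearest to the most members, and list genes near a member. The members and lists were chosen with earlier results of these data known, and the NFI sequences after the 6-letter counts were seen. Alternatives were other thresholds, overlaps, windows, peak numbers, pseudocounts and filters. Overlap and sequence counts were tested on simulated data. The code ran under Python 3.11.15 with pysam 0.24.0, pandas 2.3.3, numpy 2.4.6, scipy 1.17.1 and matplotlib 3.10.9.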

Additional observations from a re-analysis of the deposited data

Results flagged for a closer look

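A list with peak names that read RWPE1-broad-ATAC was deposited under the label of an ERG ChIP of LY294002-treated VCaP cells, so its line cannot be told from the labels, and it was used for no comparison above. The study has an ATAC-Seq sample of RWPE1-vector cells for which no list was analysed here, and whether this list belongs to it cannot be told from the labels. If it does, the ERG-only peaks it overlaps were also called in RWPE1-vector cells. It holds 55889 peaks. It overlapped 19.5% of ERG-only peaks (95% Wilson interval 18.8 to 20.3%), against 38.5% of the peaks shared with RWPE1-ERG/mAKT, 79.4% of those shared with RWPE1-mAKT and 97.1% of those open in all 3 lines. The 9379 ERG-only peaks outside the list held the NFI half-site in 41.4% and the AP-1 site in 22.3%. The 2277 inside it held them in 30.5% and 14.8%, and 8.39% of these were at gene starts, against 3.77% of those outside. Their median fold enrichments were 5.81 inside and 5.71 outside.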

How the results depend on the processing

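The number of ERG-only peaks was 6867 at a −log10 q-value of at least 10 and 7432 with the same number of peaks from each list. The NFI half-site was in 34.3% of ERG-only peaks in the weak band, 42.8% at a −log10 q-value of at least 10, 40.9% with equal numbers of peaks and 41.4% outside the list of unknown line, and in 30% of windows of 200 bp and 48.8% of 500 bp. In each of these it was above the share in peaks open in all 3 lines, which was 12.5 to 25.8%. These NFI settings, and the 1 kb, equal-number and unknown-line settings for shares, were chosen after seeing the data. In windows of 200 and 500 bp, AP-1 was in 15.9% and 24.9%, GGAAG in 54.7% and 84%, and CAGGAAG in 11.9% and 24.2%. CCGGAAGT was in 0.412% of windows of 500 bp, and AP-1 in 22.3% outside the list of unknown line. The share at gene starts was 6.1% in the weak band, 3.68% above it, 3.77% outside the list of unknown line, and 14.6% within 5 kb. ERK2 peaks of RWPE1-ERG with a −log10 p-value of at least 5 overlapped 0.0257%, and 0.738% had any within 1 kb, against 1.12% and 8.24% of peaks open in all 3 lines. For ERG peaks of RWPE1-ERG/mAKT these were 0.489% and 1.7%, against 2.63% and 5.28%.

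The H3K27me3 order against peaks open in all 3 lines turned in the weak band, for RWPE1-ERG (5.28% against 5.87%) and S96E (12.1% against 13.4%), and the cause was not tested. With regions of at least 2-fold enrichment the shares of RWPE1-vector, RWPE1-ERG and S96E were 3.37%, 2.51% and 7.47%, and with at least 50% of the peak covered 7.22%, 2.85% and 7.66%. With equal numbers of regions RWPE1-vector had 6.45% and S96E 10.1%. Equal numbers of peaks gave RWPE1-ERG 4.33% and S96E 10.1%, and peaks above the weak band gave S96E 9.76%. Of nearest genes, 129 were higher and 68 lower with a pseudocount of 0.1 FPKM, and 213 and 118 at 1.5-fold, where the shares lower were 2.32% and 4.02%, against 1.81% and 2.97% of all genes. Of 101 alternatives, 60 stayed within the interval or within 1.5 times the count. No paired analysis was possible because the FPKM table holds pooled values per line and no columns of single libraries. For the same reason no library could be left out, and 1 ATAC library per line gives no replicate error.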

Other observations

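The ERG-only peaks were spread unevenly over chromosomes. Chromosome 3 held 7.9% of them, against 5.52% of peaks open in all 3 lines and 4.67% of RWPE1-mAKT-only peaks, and chromosome 19 held 1.97%, against 4.53% and 3.07%. Chromosome 18 held 2.29%, against 1.61% and 1.65%. Of the peaks shared with RWPE1-ERG/mAKT, chromosome 3 held 5.63%, chromosome 19 held 1.51% and chromosome 18 held 2.48%, and of RWPE1-ERG/mAKT-only peaks 6.4%, 1.34% and 2.2%, so the low share on chromosome 19 and the high share on chromosome 18 were not particular to ERG-only peaks. Differences in chromosome copies between the lines were not tested.

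In runs of ERG-only peaks with gaps of at most 50 kb and no other RWPE1-ERG peak between them, the longest held 6 peaks. The most compact of these, chr11:115595510-115644964, spans 49455 bp with no protein-coding gene. Another lies at EBF4, chr20:2672741-2735338, and 1 more at NCKAP5, chr2:134210233-134326411.

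The member in ERG itself, chr21:39991997-39992385, had a fold enrichment of 5.37, lies inside the gene's span and holds an NFI half-site.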
